A study of Homo sapiens with 12 samples.

Results

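The enzymes that make heme were followed through 2 cell lines that carried either a sponge against the microRNA miR-16 or a mock sponge. The genes are ALAS1, ALAS2, ALAD, UROS, UROD, CPOX, PPOX and FECH, in the order in which their products act. They were found by their symbols in the array's annotation, and 18 of the 54613 probe sets tested name 1 of these 8 enzymes alone. The array holds 19775 genes that can be named in this way. The list does not hold every enzyme of the pathway. In MMS1 cells with the miR-16 sponge, 4 of the 8 enzymes fell and 0 rose, against 8.08% and 4.34% of all genes, with ALAS2 falling most of the 8, at 5.69-fold lower. In RPMI8226 cells 0 of the 8 passed the test, where 0.0152% of all genes rose and 0.202% fell.

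Heme is the iron-holding ring of hemoglobin, cytochromes and many other proteins. Its synthesis starts in the mitochondrion, where 5-aminolevulinate synthase joins glycine and succinyl-CoA. That step sets the pace of the pathway and exists in a pair of forms, ALAS1 in all cells and ALAS2 in red cell precursors. The middle steps take place in the cytosol, and the last return to the mitochondrion, where FECH places iron in the ring. ALAS1 is held down by heme itself, while ALAS2 is switched on by erythroid transcription factors such as GATA1 and KLF1, and its translation is tied to iron supply.

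The study used human Affymetrix expression arrays, 12 in 4 groups of 3, on the multiple myeloma lines MMS1 and RPMI8226 (some labels write RPMI or RPMI826). All cells of every group carried a stable lentiviral insertion with GFP, had been sorted by flow cytometry and had then been expanded. MMS1 control and RPMI8226 control cells carried a mock sponge. MMS1 miR-16 sponge and RPMI8226 miR-16 sponge cells carried a sponge, a transcript with binding sites that take up miR-16; the titles call these groups miR16 KO. The stated purpose was to imitate the fall of miR-16 in myeloma cells that lack 13q. The lines were grown side by side in flasks for a week and lysed together. The labels do not tie an array to its own flask, so p-values measure only the spread between these arrays. In such bulk RNA, fewer cells of a type and less RNA per cell cannot be told apart.

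The sponge is aimed at the following microRNA, shown because its seed, bases 2 to 8 in capitals, is the stretch through which it recognises its targets. The sequence is RefSeq's, GRCh38.p14, and is made from MIR16-1 (chr13:50049027-50049048, minus strand) and MIR16-2 (chr3:160404754-160404775, plus strand).
hsa-miR-16-5p: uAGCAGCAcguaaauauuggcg
The probe sets did not measure miR-16 itself.

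Before the results, several properties of the arrays bear on them. Signals are log2 values with a lower bound of 4. The median standard error of a difference between 2 groups was 0.14. On MMS1 miR-16 sponge replicate 1 the 18S ribosomal RNA control signal was 7.84, against 9.56 to 11.14 on the other 11 arrays. Left out, that array did not move the MMS1 count: 4 of 8 enzymes fell and 0 rose. The lines are labelled as myeloma, a cancer of plasma cells. Of 12 plasma cell markers, SSR4 with a mean of 10.29, SDC1 with 8.90 and XBP1 with 8.51 were the 3 above the upper quartile of genes. Another 6 were under the median gene (6.44). The lowest were JCHAIN at 4.20, TNFRSF17 at 4.46 and CD38 at 4.91, within 1 log2 unit of the lower bound on average. Of 16 erythroid markers listed, 12 were measured. Of these 12, 9 lay above the upper quartile, among them HBE1 at 14.16, HBZ at 13.06, GATA1 at 9.56 and KLF1 at 9.27. The 9 include ALAS2 itself, at 9.05. The other 3 lay below the median gene, SLC4A1 at 5.99, AHSP at 5.53 and EPB42 at 5.12. These are levels of different probe sets, which bind with different strength, so they are given as a description. Signals of JCHAIN, TNFRSF17 and CD38 near the lower bound and bright embryonic globin genes go against the labelled cell type, and the lines are named here only as labelled.

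ALAS2 makes the erythroid form of the first enzyme and gave the largest difference of the 8. Its signals were 9.96, 9.81 and 9.94 in MMS1 control cells and 7.75, 7.11 and 7.32 in MMS1 miR-16 sponge cells. They were 9.35, 9.26 and 9.29 in RPMI8226 control cells and 9.66, 9.54 and 9.57 in RPMI8226 miR-16 sponge cells. All 3 MMS1 sponge arrays lay below the 9 other arrays, and none of the 4 groups overlapped another. Separation of groups is given throughout as a description, and the share of all probe sets that separate in this way was not counted. In MMS1, ALAS2 fell by 2.51 on the log2 scale with a standard error of 0.139, or 5.69-fold (95% confidence interval 4.62 to 7.01; adjusted p = 1.15e-07). Here and below, adjusted p comes from limma's moderated test and the Benjamini-Hochberg method over all probe sets, and genes under 0.05 count as called. In RPMI8226 the difference was 0.29 (95% confidence interval -0.01 to 0.59, adjusted p = 0.381). The sponge effect in RPMI8226 minus that in MMS1 was 2.80 with a standard error of 0.197 (adjusted p = 2.55e-06). Without MMS1 miR-16 sponge replicate 1 the MMS1 difference was -2.69.

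The order of the ALAS2 group means was MMS1 control (9.90 ± 0.08, SD, n = 3), RPMI8226 miR-16 sponge (9.59 ± 0.06), RPMI8226 control (9.30 ± 0.05) and MMS1 miR-16 sponge (7.39 ± 0.33). The RPMI8226 pair in the middle of that order did not pass the test, although its arrays did not overlap. Between the control groups ALAS2 was lower in RPMI8226 by a log2 difference of -0.60 (adjusted p = 0.0164). That call was lost on leaving out any of 4 arrays, MMS1 control replicates 1 and 3 and RPMI8226 control replicates 2 and 3 (adjusted p between 0.0562 and 0.0671), and with the mean over both probe sets (-0.28, adjusted p = 0.204). With the sponge the line order was turned, and ALAS2 was higher in RPMI8226 by 2.20 (adjusted p = 5.91e-07). The second ALAS2 probe set, 244205_at, ran only from 4.87 to 5.63 and passed in 0 comparisons, while the values above are from 211560_s_at. Averaging both probe sets gave an MMS1 difference of -1.35 (adjusted p = 1.53e-05).

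The promoter of ALAS2 is printed because its transcript moved most, together with those of UROD, which fell without a listed motif, and CPOX, which holds a motif and did not pass. Each shows the 250 bases before RefSeq's transcription start (GRCh38.p14), read along the gene. Capitals mark matches on either strand. The GATA motif was searched as AGATAA and as TGATAA, each also with G in place of its last base. The others were CACCC, the letters of KLF1-type factors, and TGAGTCA with its mirror form TGACTCA, the core shared by AP-1 and NFE2. ALAS2 lies on the minus strand at chrX:55030978-55031227, UROD on the plus strand at chr1:45012004-45012253 and CPOX on the minus strand at chr3:98593612-98593861.
ALAS2: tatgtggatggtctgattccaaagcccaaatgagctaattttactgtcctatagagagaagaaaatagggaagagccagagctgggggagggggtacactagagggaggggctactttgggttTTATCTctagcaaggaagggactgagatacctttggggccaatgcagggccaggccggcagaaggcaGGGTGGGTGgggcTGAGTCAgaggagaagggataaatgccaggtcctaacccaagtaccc
UROD: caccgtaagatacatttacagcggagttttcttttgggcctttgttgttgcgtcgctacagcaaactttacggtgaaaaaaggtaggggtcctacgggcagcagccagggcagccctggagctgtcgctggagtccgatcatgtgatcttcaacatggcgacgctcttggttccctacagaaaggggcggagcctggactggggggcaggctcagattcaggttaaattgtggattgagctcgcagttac
CPOX: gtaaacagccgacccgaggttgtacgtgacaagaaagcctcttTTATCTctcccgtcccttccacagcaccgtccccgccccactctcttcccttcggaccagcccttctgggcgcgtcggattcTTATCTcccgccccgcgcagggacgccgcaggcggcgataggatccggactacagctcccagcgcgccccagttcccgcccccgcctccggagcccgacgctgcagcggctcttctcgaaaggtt
In ALAS2 the GATA match lay 127 to 122 bases before the start, the CACCC matches 60 to 56 and 56 to 52 bases before it, sharing 1 base, and TGAGTCA 47 to 41 bases before it.

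Windows were on hand for 7 of the 8 enzymes, 9 windows in all because ALAD and PPOX have 2 starts each. The 2 ALAD windows overlap, as do the 2 PPOX windows, so the 9 are not separate. A GATA match was in 4 of the 9, against 22.33% of all 35116 windows of that length. CACCC was in 5 of 9, against 54.71%, and the AP-1 and NFE2 core in 1 of 9, that of ALAS2, against 4.203%. The only CACCC match of the second ALAD window lies in the overlap and is counted in both ALAD windows. The ALAS1 window, which had 1 CACCC match, lay on the plus strand at chr3:52197833-52198082. The second PPOX start had a GATA match 63 to 58 bases before it and 3 CACCC matches. UROD, FECH and the first PPOX start had 0 matches to any of these letters. Of the enzymes with a GATA match in a window, ALAS2 and PPOX fell in MMS1, and ALAD and CPOX did not pass. Of those with 0 GATA matches, UROD and FECH fell and ALAS1 did not pass. UROS had no window. A link between these letters and the differences was not tested. A match is a run of letters and was not measured here as a bound site.

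The ALAS2 transcript also carries an iron-responsive element near its 5′ end, through which iron-regulatory proteins hold back translation when iron is scarce. The 29 bases found by its pattern (loop CAGTG in capitals, with an unpaired C 6 bases before the loop) lie at chrX:55030941-55030969 on the minus strand.
ALAS2 iron-responsive element: ttcgttcgtcctCAGTGcagggcaacagg
The same letter pattern was in 1.706% of 35116 windows of 50 bases after a start. Arrays measure the transcript, not its translation, so this element was not read out.

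**Figure D1:**
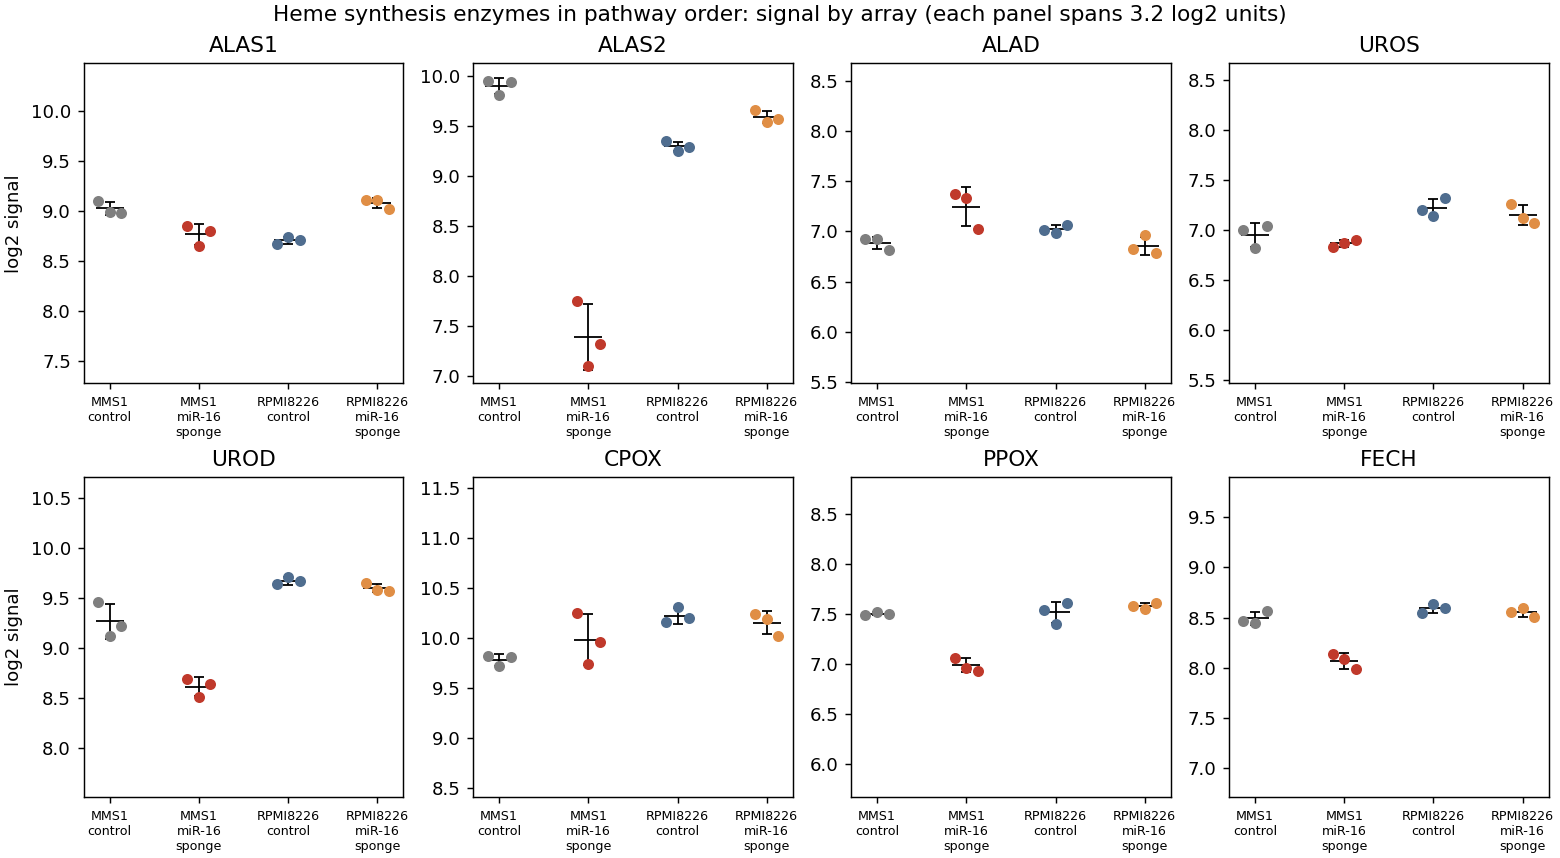
Log2 signal of each of the 8 enzymes on each of the 12 arrays, by group (points: arrays; lines: mean and SD of 3 arrays); all panels span the same number of log2 units. ALAS2 drops from 9.81 to 9.96 in MMS1 controls to 7.11 to 7.75 with the sponge, and UROD, PPOX and FECH are each lowest in the same group.

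ALAS1 makes the form of the first enzyme that all cells use, and its values moved in opposite directions in the lines. They were 9.11, 8.99 and 8.99 in MMS1 control cells and 8.85, 8.65 and 8.81 in MMS1 miR-16 sponge cells. In RPMI8226 they were 8.67, 8.74 and 8.71 in control cells and 9.11, 9.11 and 9.03 in miR-16 sponge cells. Sponge and control arrays did not overlap in either line, with the sponge arrays all lower in MMS1 and all higher in RPMI8226. MMS1 gave a difference of -0.26 (adjusted p = 0.11) and RPMI8226 a difference of 0.37 (adjusted p = 0.117), so neither passed alone. The difference between those effects passed, at 0.63 with a standard error of 0.133 (adjusted p = 0.0153), and it passed under every alternative that was run.

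The ALAS1 means ran in the order RPMI8226 miR-16 sponge (9.08 ± 0.05, SD, n = 3), MMS1 control (9.03 ± 0.07), MMS1 miR-16 sponge (8.77 ± 0.10) and RPMI8226 control (8.71 ± 0.03). Neighbours at the top overlapped, as did those at the bottom. Between controls RPMI8226 minus MMS1 was -0.32 (adjusted p = 0.0568; leaving out MMS1 miR-16 sponge replicate 1 gave 0.0367). Between miR-16 sponge cells it was 0.31 (adjusted p = 0.0356). That last call was lost on leaving out any of 7 arrays (adjusted p between 0.0507 and 0.127), namely all RPMI8226 miR-16 sponge arrays and replicates 2 and 3 of both the MMS1 miR-16 sponge and the RPMI8226 control group. It was also lost with only the 2 groups compared (adjusted p = 0.126). ALAS1 passed in RPMI8226 among the brighter probe sets (adjusted p = 0.0276) and with limma's trended, robust prior (adjusted p = 0.0106). In MMS1 it passed as lower under the same settings (adjusted p = 0.0372 and 0.0299).

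ALAD joins a pair of aminolevulinate molecules into porphobilinogen, and it leaned the other way from ALAS2. Its signals were 6.92, 6.92 and 6.82 in MMS1 control cells and 7.38, 7.34 and 7.03 in MMS1 miR-16 sponge cells. In RPMI8226 they were 7.02, 6.99 and 7.06 in control cells and 6.82, 6.96 and 6.79 in miR-16 sponge cells. All MMS1 sponge arrays lay above all MMS1 controls, and all RPMI8226 sponge arrays lay below all RPMI8226 controls. With so few arrays in a group, this separation is not a test. Neither difference passed, MMS1 giving 0.36 (adjusted p = 0.0562) and RPMI8226 -0.17 (adjusted p = 0.544), nor did the difference between them (-0.53, adjusted p = 0.0738). That last difference passed without MMS1 miR-16 sponge replicate 3 (-0.64, adjusted p = 0.0233). Leaving out MMS1 miR-16 sponge replicate 3 made the MMS1 value pass as higher (0.47, adjusted p = 0.0159). It also passed after quantile normalization (adjusted p = 0.0201), among the brighter probe sets (adjusted p = 0.0165) and with the trended prior (adjusted p = 0.0279).

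With the sponge, ALAD was lower in RPMI8226 than in MMS1 by a log2 difference of -0.39 (adjusted p = 0.0264). That call was lost on leaving out any of 4 arrays, replicates 1 and 2 of the MMS1 miR-16 sponge group and 1 and 3 of the RPMI8226 miR-16 sponge group (adjusted p between 0.0757 and 0.0883). It was also lost with the mean over probe sets (adjusted p = 0.0501) and with only the 2 groups compared (adjusted p = 0.1). The order of its means was MMS1 miR-16 sponge (7.25 ± 0.19, SD, n = 3), RPMI8226 control (7.02 ± 0.04), MMS1 control (6.89 ± 0.06) and RPMI8226 miR-16 sponge (6.86 ± 0.09). The first of these overlapped the next group through its lowest array, and the last pair overlapped. The other ALAD probe set, 218487_at, gave 0.16 in MMS1 and 0.03 in RPMI8226.

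UROS closes the ring, and its sponge differences did not pass in either line. Its signals lay between 6.82 and 7.04 on the 6 MMS1 arrays and between 7.07 and 7.32 on the 6 RPMI8226 arrays, with sponge and control overlapping in both lines. The sponge difference was -0.08 in MMS1 (95% confidence interval -0.31 to 0.14, adjusted p = 0.699) and -0.07 in RPMI8226 (-0.29 to 0.15, adjusted p = 0.812). All RPMI8226 arrays lay above all MMS1 arrays. The line difference was 0.27 in controls (adjusted p = 0.151) and 0.28 with the sponge (adjusted p = 0.0788), which did not pass.

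UROD, which trims the side chains of the ring, gave the second largest fall. The probe set 208970_s_at read 9.46, 9.11 and 9.22 in MMS1 control cells and 8.69, 8.51 and 8.64 in MMS1 miR-16 sponge cells. In RPMI8226 it read 9.63, 9.71 and 9.67 in control cells and 9.64, 9.58 and 9.56 in miR-16 sponge cells. The MMS1 sponge arrays lay below all other arrays, whereas the RPMI8226 groups overlapped. In MMS1, UROD fell by 0.65 with a standard error of 0.107, or 1.57-fold (95% confidence interval 1.34 to 1.85; adjusted p = 0.00147). In RPMI8226 the difference was -0.07 (-0.30 to 0.16, adjusted p = 0.817).

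A second UROD probe set, 208971_at, read 8.41, 8.34 and 8.43 in MMS1 control cells against 7.90, 7.76 and 7.71 with the miR-16 sponge, and also passed as lower. In RPMI8226 it gave -0.18 (adjusted p = 0.49), and its effects were not shown to differ between lines (0.43, adjusted p = 0.136). The last, 222074_at, lay between 4.74 and 5.41 and did not pass in MMS1. With the mean over all 3 probe sets, the MMS1 difference shrank to -0.37 (adjusted p = 0.0143). The effect in RPMI8226 minus that in MMS1 was 0.58 (adjusted p = 0.0436) for UROD. It no longer passed on leaving out any of 10 arrays, all save MMS1 control replicate 2 and MMS1 miR-16 sponge replicate 1 (adjusted p between 0.0612 and 0.106), nor with the mean over probe sets (adjusted p = 0.361).

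UROD also differed between the lines. Its means ran in the order RPMI8226 control (9.67 ± 0.04, SD, n = 3), RPMI8226 miR-16 sponge (9.60 ± 0.04), MMS1 control (9.26 ± 0.18) and MMS1 miR-16 sponge (8.61 ± 0.09), and the RPMI8226 pair overlapped. It was higher in RPMI8226 by 0.41 in control cells (adjusted p = 0.0333) and by 0.99 with the sponge (adjusted p = 4.7e-05). The control call was lost on leaving out any of 5 arrays, MMS1 control replicates 2 and 3 and all RPMI8226 controls (adjusted p between 0.0676 and 0.144), and with only the 2 groups compared (adjusted p = 0.0701).

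CPOX, the next enzyme, works between the mitochondrial membranes. Its signals were 9.82, 9.71 and 9.81 in MMS1 control cells and 10.25, 9.74 and 9.95 in MMS1 miR-16 sponge cells, which overlapped. In RPMI8226 they were 10.15, 10.31 and 10.20 in control cells and 10.24, 10.19 and 10.02 in miR-16 sponge cells, which overlapped too. The sponge difference was 0.20 in MMS1 (95% confidence interval -0.07 to 0.48, adjusted p = 0.395) and -0.07 in RPMI8226 (-0.34 to 0.20, adjusted p = 0.858). Between controls CPOX gave 0.44 for RPMI8226 minus MMS1 (adjusted p = 0.0502), the 3 RPMI8226 arrays all above the 3 MMS1 arrays. It passed under 7 alternatives, among them leaving out MMS1 miR-16 sponge replicate 1 or 2 (adjusted p = 0.0154 and 0.0309). 

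PPOX, which oxidises the ring to protoporphyrin, read 7.49, 7.52 and 7.50 in MMS1 control cells and 7.06, 6.96 and 6.93 in MMS1 miR-16 sponge cells. In RPMI8226 it read 7.54, 7.40 and 7.61 in control cells and 7.57, 7.55 and 7.61 in miR-16 sponge cells. The MMS1 sponge arrays lay apart below the other 9, whose groups overlapped their neighbours in the order of the means. In MMS1, PPOX fell by 0.52 with a standard error of 0.0934, or 1.43-fold (95% confidence interval 1.24 to 1.65; adjusted p = 0.00298). In RPMI8226 it gave 0.06 (-0.14 to 0.26, adjusted p = 0.823). The difference between those effects was 0.58 (adjusted p = 0.0232).

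These PPOX values come from 204788_s_at. The other PPOX probe sets, 238117_at and 238118_s_at, read 4.42 to 5.47 over all arrays and did not pass. With the mean over all 3, the MMS1 fall no longer passed (-0.34, adjusted p = 0.105), nor did the difference between lines in the sponge effect (adjusted p = 0.457). That difference was also lost on leaving out any of 6 arrays, all MMS1 controls, RPMI8226 control replicate 2 and RPMI8226 miR-16 sponge replicates 2 and 3 (adjusted p between 0.05002 and 0.0681). With the sponge PPOX was higher in RPMI8226 by 0.59 (adjusted p = 0.000765), or 0.32 with the mean over probe sets (adjusted p = 0.0902), and in controls by 0.02 (adjusted p = 0.961). The group means were 7.58 ± 0.03 (SD, n = 3) in RPMI8226 miR-16 sponge, 7.52 ± 0.11 in RPMI8226 control, 7.50 ± 0.01 in MMS1 control and 6.98 ± 0.07 in MMS1 miR-16 sponge cells.

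FECH, the ferrochelatase that completes heme, read 8.47, 8.45 and 8.56 in MMS1 control cells and 8.14, 8.09 and 7.98 in MMS1 miR-16 sponge cells. In RPMI8226 it read 8.55, 8.63 and 8.59 in control cells and 8.55, 8.60 and 8.51 in miR-16 sponge cells. As for PPOX, the MMS1 sponge arrays alone lay apart, and the other groups overlapped their neighbours. In MMS1, FECH fell by 0.42 with a standard error of 0.0916, or 1.34-fold (95% confidence interval 1.17 to 1.54; adjusted p = 0.00949). In RPMI8226 it gave -0.04 (-0.24 to 0.16, adjusted p = 0.897). The difference between those effects, 0.38, did not pass (adjusted p = 0.119), so the FECH effect was not shown to differ between lines. It passed with quantile normalization (0.43, adjusted p = 0.0414), among the brighter probe sets (adjusted p = 0.0372) and with the trended prior (adjusted p = 0.0393).

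The FECH values come from 203116_s_at, and the other probe sets, 203115_at and 229696_at, gave -0.23 and -0.22 in MMS1 and did not pass. In RPMI8226 they gave -0.25 and 0.24 (adjusted p = 0.378 and 0.411). Their RPMI8226 effect minus the MMS1 effect was -0.02 and 0.45 (adjusted p = 0.967 and 0.160). With the mean over all 3, the MMS1 value was -0.29 (adjusted p = 0.0654), and with only the 2 groups compared its adjusted p was 0.0559. With the sponge, FECH was higher in RPMI8226 by 0.48 (adjusted p = 0.00273). In controls the line difference was 0.10 (adjusted p = 0.642). Means were 8.59 ± 0.04 (SD, n = 3) in RPMI8226 control, 8.55 ± 0.04 in RPMI8226 miR-16 sponge, 8.49 ± 0.06 in MMS1 control and 8.07 ± 0.08 in MMS1 miR-16 sponge cells.

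**Figure D2:**
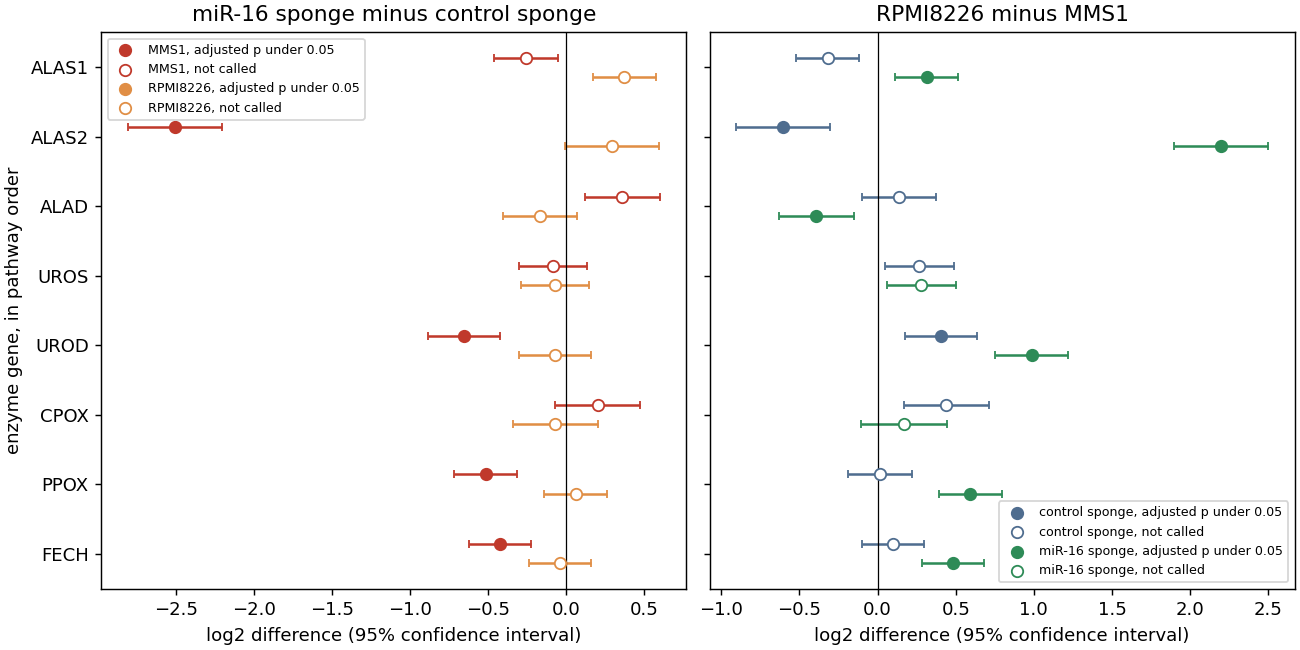
Log2 differences of the 8 enzymes with 95% confidence intervals: left, miR-16 sponge minus control sponge in each line; right, RPMI8226 minus MMS1 with each sponge (filled: adjusted p under 0.05). ALAS2, UROD, PPOX and FECH are filled on the left in MMS1, where 4.34% of all genes rose and 8.08% fell. In RPMI8226 0 of the 8 are filled, where 0.0152% of all genes rose and 0.202% fell.

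Counted together, 4 of 8 enzymes fell and 0 rose in MMS1, where 8.08% of all genes fell and 4.34% rose. The median difference of the 8 was -0.34, against -0.04 for all genes. In pathway order, the enzymes that fell were ALAS2 at the first step, then UROD, and PPOX and FECH at the end. CPOX, which acts between UROD and PPOX, did not pass. The 4 that did not pass gave -0.26 (ALAS1), 0.36 (ALAD), -0.08 (UROS) and 0.20 (CPOX). None of the 4 falls was lost when any 1 of the 12 arrays was left out. With the mean over probe sets, however, PPOX and FECH no longer passed (adjusted p = 0.105 and 0.0654). FECH also lost its call with only the MMS1 groups in the fit. By probe set, 5 of 18 fell and 0 rose. Both 208970_s_at and 208971_at are among the 5 and name UROD, so this count repeats a gene. The percentages above are of genes, and the share of all probe sets that fell was not counted.

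In RPMI8226, limma's test called 0 enzymes either way, where 0.0152% of all genes rose and 0.202% fell. At an unadjusted p under 0.05 there was 1 enzyme, ALAS1, and there were 2829 genes. The median of the 8 was -0.05, against -0.02 for all genes. Over the 8 enzymes the 95% confidence intervals reached from -0.40 (ALAD) to 0.59 (ALAS2). The miss of the threshold does not show that the enzymes were equal in both groups.

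The average of both lines' sponge effects called 3 enzymes lower and 0 higher, against 6.6% and 2.24% of genes. ALAS2 gave -1.11 (adjusted p = 1.98e-05), UROD -0.36 (adjusted p = 0.011) and FECH -0.23 (adjusted p = 0.0493). The FECH call was lost on leaving out any of 11 arrays, all save MMS1 miR-16 sponge replicate 1 (adjusted p between 0.0730 and 0.123), with quantile normalization (-0.16, adjusted p = 0.122) and with the mean over probe sets (-0.15, adjusted p = 0.194). This average uses the same arrays as each line's own comparison, and for all 3 enzymes the MMS1 difference was the larger in size. Without MMS1 miR-16 sponge replicate 1 the average called 4 enzymes lower, PPOX being the added call (-0.25, adjusted p = 0.0328).

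The sponge effect differed between lines for 4 of 8 enzymes, ALAS1, ALAS2, UROD and PPOX, all with the higher value in RPMI8226, and for 0 in the other direction. Of all genes 2.63% and 3.27% passed in these directions. The comparison shares its arrays with the MMS1 and RPMI8226 comparisons and is not separate evidence. Between control cells RPMI8226 exceeded MMS1 for 1 enzyme (UROD) and lay below it for 1 (ALAS2), against 6.52% and 3.8% of genes. Between miR-16 sponge cells it exceeded MMS1 for 5 (ALAS1, ALAS2, UROD, PPOX and FECH) and lay below it for 1 (ALAD), against 12.2% and 8.38%. That comparison uses the same MMS1 miR-16 sponge arrays as the MMS1 falls and is not separate evidence either. Without MMS1 miR-16 sponge replicate 1, the sponge effects still differed for 4 enzymes. The line counts were then 2 higher and 2 lower in control cells and 5 higher and 0 lower in sponge cells.

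**Figure D3:**
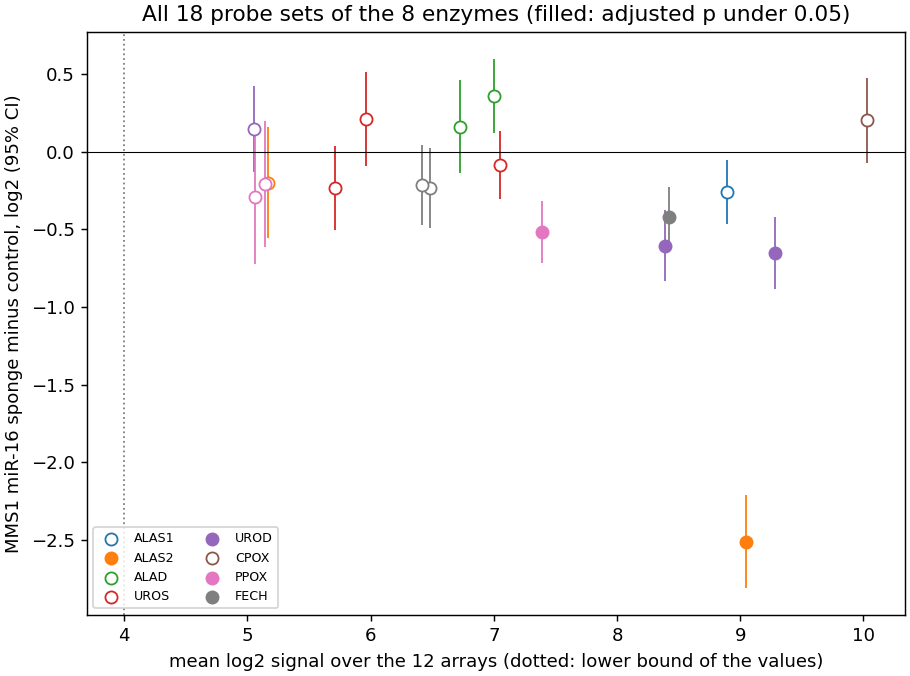
All 18 probe sets of the 8 enzymes: log2 difference in MMS1 (miR-16 sponge minus control, with 95% confidence intervals) against mean log2 signal over the 12 arrays; the dotted line is the lower bound of 4, and filled points passed. The 5 that passed lie between 7.39 and 9.28, and each of the 4 genes that fell has at least 1 dimmer probe set that did not pass.

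Over the 12 arrays the enzymes that fell in MMS1 were correlated. Pearson's r was 0.944 between ALAS2 and PPOX, 0.937 between FECH and PPOX, 0.937 between FECH and UROD and 0.903 between ALAS2 and FECH. ALAD and ALAS2 gave -0.802, and CPOX and ALAS2 gave 0.046. These values describe 12 arrays that fall into 4 groups, so they largely repeat the order of the group means. Among 9886 brighter genes, those most like ALAS2 were NIBAN1 (r = 0.987), EVL (0.984), RING1 (0.979), ANAPC5 (0.978) and IGF1R (0.976), all lowest in MMS1 miR-16 sponge cells. Those most like UROD were NOTCH2 (0.987), JAGN1 (0.987), OXLD1 (0.983), HIC2 (0.980) and MGAT5 (0.978). For ALAS1 they were TUBA1A (0.967), LINC01664 (0.881), SIVA1 (0.875), SMDT1 (0.859) and MCU (0.850). With group means removed, r was 0.379 for NIBAN1 with ALAS2, 0.811 for NOTCH2 with UROD and 0.901 for TUBA1A with ALAS1.

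The transcription factors and coactivators that act on the ALAS genes gave 4 falls and 1 rise among 9 in MMS1, with a median of -0.31, where 8.08% of all genes fell and 4.34% rose. KLF1, an erythroid activator that binds CACCC letters, fell from 9.83 ± 0.13 to 7.98 ± 0.11 (SD, n = 3 each), a difference of -1.85 (adjusted p = 1.97e-07). NFE2 fell by 0.84 (adjusted p = 0.000178) and ZFPM1, the GATA1 partner FOG1, fell by 0.83 (adjusted p = 0.000102). The erythroid master regulator GATA1 changed by -0.41 (adjusted p = 0.0158), while TAL1, its partner in erythroid complexes, rose by 0.62 (adjusted p = 0.00296). The GATA1 call was lost on leaving out any of 3 arrays, MMS1 control replicates 1 and 3 and MMS1 miR-16 sponge replicate 3 (adjusted p between 0.0557 and 0.0742), and with only the 2 groups compared (adjusted p = 0.0677). With the mean over probe sets TAL1 gave 0.30 (adjusted p = 0.139) and ZFPM1 -0.29 (adjusted p = 0.233).

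In RPMI8226, 0 of these 9 regulators passed, where 0.0152% of all genes rose and 0.202% fell. LMO2 gave -0.58 (adjusted p = 0.0616), NFE2 -0.53 (adjusted p = 0.0661), GATA1 -0.33 (adjusted p = 0.161) and KLF1 -0.14 (adjusted p = 0.603). LMO2 and NFE2 passed as lower in RPMI8226 without MMS1 miR-16 sponge replicate 1 (adjusted p = 0.0148 and 0.0276), and NFE2 also without its replicate 3 (adjusted p = 0.0492). Among the brighter probe sets LMO2, NFE2 and GATA1 did (adjusted p = 0.0107, 0.0116 and 0.0454). The sponge effects differed between lines for KLF1 (1.70, adjusted p = 2.73e-05) and ZFPM1 (0.92, adjusted p = 0.00162), but ZFPM1 gave 0.40 with the mean over probe sets (adjusted p = 0.316). Of all genes 2.63% passed in that comparison with the higher effect in RPMI8226 and 3.27% with the lower. The lines' controls differed for 0 of the 9, against 6.52% of all genes higher and 3.8% lower in RPMI8226. PPARGC1A, NRF1 and ESRRA, which act on ALAS1, did not pass in either line.

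Among carriers that move heme precursors and their partners, 4 of 13 measured genes fell and 1 rose in MMS1, with a median of -0.09, against 8.08% and 4.34% of all genes. ABCB6, a porphyrin transporter, fell by 0.73 (adjusted p = 0.00216), though with the mean over probe sets it gave -0.44 (adjusted p = 0.0968). SLC25A37, or mitoferrin, which brings iron into the mitochondria of red cell precursors, fell by 0.56 (adjusted p = 0.00335). SLC48A1, a heme transporter, fell by 0.54 (adjusted p = 0.0172) and ABCB10, which stabilises mitoferrin, fell by 0.46 (adjusted p = 0.0141). CLPX, a mitochondrial unfoldase that activates ALAS, rose by 0.52 (adjusted p = 0.0218).

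Several of these carrier calls were fragile. ABCB10 lost its call without MMS1 control replicate 3 or MMS1 miR-16 sponge replicate 2 (adjusted p between 0.0524 and 0.0722) and with only the 2 groups compared (adjusted p = 0.0592). SLC48A1 lost it without MMS1 control replicates 1 or 3 or MMS1 miR-16 sponge replicate 3 (adjusted p between 0.0582 and 0.0748) and with the mean over probe sets (adjusted p = 0.0746). CLPX lost it without any MMS1 control array or MMS1 miR-16 sponge replicate 1 (adjusted p between 0.0544 and 0.0779), with only the 2 groups compared (adjusted p = 0.0556) and with the mean over probe sets (0.27, adjusted p = 0.129). In RPMI8226, 0 of the 13 passed, where 0.0152% of all genes rose and 0.202% fell. The effect differed between lines for SLC25A37 (0.67, adjusted p = 0.0177), ABCB10 (0.59, adjusted p = 0.0408) and CLPX (-0.77, adjusted p = 0.0289). Of all genes 2.63% passed there with the higher effect in RPMI8226 and 3.27% with the lower. The SLC25A37 call was lost without MMS1 control replicate 1 or RPMI8226 control replicate 3 (adjusted p = 0.0502 and 0.0503) and with the mean over probe sets (adjusted p = 0.0544). The ABCB10 call was lost on leaving out any of 9 arrays, all save MMS1 control replicate 2, MMS1 sponge replicate 1 and RPMI8226 sponge replicate 3 (adjusted p up to 0.0994). The CLPX call was lost on leaving out any of 8 arrays, all controls and RPMI8226 sponge replicates 2 and 3 (adjusted p up to 0.0733), and with the mean over probe sets (adjusted p = 0.0847). SLC25A37 ran like ALAS2 between controls too, lower in RPMI8226 by a difference of -0.61 (adjusted p = 0.00221), while the exporter gene ABCG2 was higher there by 1.19 (adjusted p = 0.000828).

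**Figure D4:**
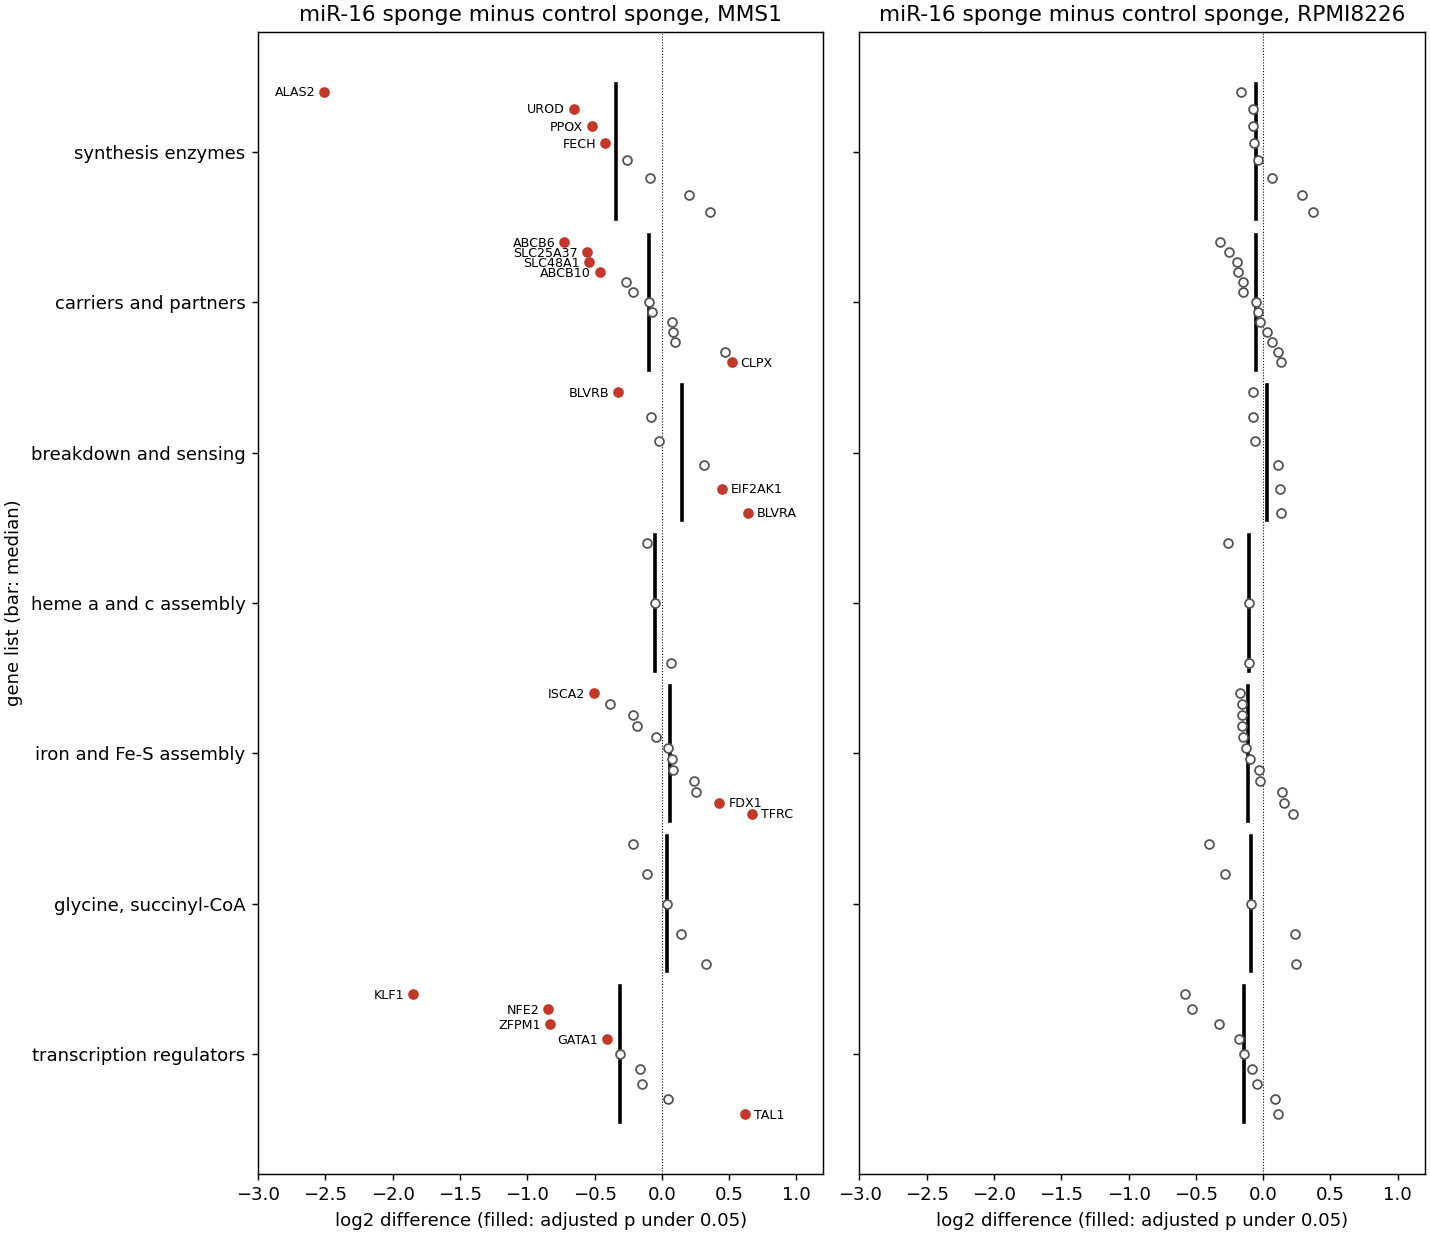
Log2 differences between miR-16 sponge and control cells in MMS1 (left) and RPMI8226 (right) for the heme synthesis enzymes and 6 lists of related genes (each point a gene, filled where adjusted p is under 0.05; bars: list medians). All filled points are in MMS1, where the enzyme median is -0.34 and that of the transcription regulators -0.31. In RPMI8226 only 0.0152% of all genes rose and 0.202% fell.

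Genes that supply iron and build iron-sulfur clusters gave 2 rises and 1 fall among 12 in MMS1, with a median of 0.06. With 4.34% of all genes rising and 8.08% falling, the fall of 1 in 12 is near the share of all genes. TFRC, the transferrin receptor, rose by 0.67, from 10.70 ± 0.05 to 11.37 ± 0.14 (SD over 3 arrays; adjusted p = 0.00125). FDX1, a ferredoxin, rose by 0.43 (adjusted p = 0.0447), a call lost on leaving out any of 9 arrays, all save MMS1 miR-16 sponge replicate 2, RPMI8226 control replicate 3 and RPMI8226 miR-16 sponge replicate 2 (adjusted p between 0.0517 and 0.140). ISCA2, an iron-sulfur assembly factor, fell by 0.50 (adjusted p = 0.00586), and STEAP3, which reduces iron in endosomes, gave -0.39 (adjusted p = 0.087). TFRC was higher in RPMI8226 than in MMS1 controls by 1.45 (adjusted p = 1.83e-06). In RPMI8226, 0 of the 12 passed with the sponge, where 0.0152% of all genes rose and 0.202% fell.

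Heme breakdown and heme sensing gave 2 rises and 1 fall among 6 genes in MMS1 (median 0.15), against 4.34% and 8.08% of all genes. BLVRA, which turns biliverdin into bilirubin, rose by 0.64 (adjusted p = 0.00115). EIF2AK1, the heme-regulated kinase that slows globin translation when heme is short, rose by 0.45 (adjusted p = 0.0169). Its call was lost without MMS1 control replicates 2 or 3 (adjusted p between 0.0554 and 0.0620) and with the mean over probe sets (0.06, adjusted p = 0.719). BLVRB fell by 0.32 (adjusted p = 0.0452), a call lost without any 1 of the 12 arrays (adjusted p between 0.0541 and 0.148). BACH1, a heme-sensing repressor, gave 0.32 (adjusted p = 0.257), and HMOX1, the inducible heme oxygenase, gave -0.08 (adjusted p = 0.746).

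The remaining lists gave 0 calls for the sponge effect of either line in limma's test. All genes gave 4.34% rises and 8.08% falls in MMS1, and 0.0152% and 0.202% in RPMI8226. Of the 3 genes that turn heme into its a and c forms, HCCS gave -0.11 (adjusted p = 0.55), COX15 0.07 (adjusted p = 0.794) and COX10 -0.05 (adjusted p = 0.811) in MMS1. Of the 5 genes that supply glycine and succinyl-CoA, the substrates of ALAS, SUCLG2 gave 0.33 (adjusted p = 0.158), SUCLG1 -0.22 (adjusted p = 0.18), SHMT2 0.15 (adjusted p = 0.406) and SLC6A9 -0.11 (adjusted p = 0.661). SLC6A9, a glycine transporter, was higher in RPMI8226 controls by 0.52 (adjusted p = 0.0154). That call was lost without MMS1 control replicate 2 or RPMI8226 control replicates 1 or 3 (adjusted p between 0.0514 and 0.0738). Between miR-16 sponge cells SUCLG2 was lower in RPMI8226 by a difference of -0.88 (adjusted p = 0.000582), and SUCLG1 and SHMT2 were higher by 0.39 and 0.34.

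Other measures moved with the sponge in MMS1 alongside these genes. Of 12 measured erythroid markers, ALAS2 and KLF1 among them, 3 rose and 4 fell, against 4.34% and 8.08% of all genes. RHAG, a red cell membrane gene, rose by 2.47, HBB, the adult beta globin, by 2.91 and TFRC by 0.67, while HBZ fell by 1.94. In RPMI8226, where 0.0152% of all genes rose and 0.202% fell, HBB rose by 3.16 and HBE1 gave -0.49 (adjusted p = 0.046). Of the 12 markers, 10 did not pass. The log2 of their summed linear signal was 15.40 to 15.46 in MMS1 control, 14.92 to 14.97 in MMS1 miR-16 sponge, 15.22 to 15.24 in RPMI8226 control and 15.44 to 15.47 in RPMI8226 miR-16 sponge arrays. Erythroid genes did not all move the way of ALAS2. Of 5 T cell markers, CD3D rose by 5.64 in MMS1, and the summed signal of the list went from 8.06 to 8.24 in control to 12.34 to 12.63 in sponge arrays, with CD3E, CD3G, CD2 and LCK not passing. The 3′ minus 5′ log2 signal of ACTB, a measure of RNA integrity and amplification, was 0.082 to 0.209 in MMS1 control and 0.235 to 0.485 in MMS1 miR-16 sponge arrays. In RPMI8226 it was 0.182 to 0.280 in control and 0.156 to 0.342 in sponge arrays. The same measure of GAPDH was 0.058 to 0.120 in MMS1 control and -0.031 to 0.065 in MMS1 miR-16 sponge arrays, lower with the sponge where ACTB was higher. The part of these measures in the enzyme results was not tested.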

How the data were processed

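The table deposited by the authors holds a log2 signal for each probe set on each array; their summarization and scaling methods are not given in the sources used here. Per the labels' protocols, total RNA was purified on RNeasy columns, amplified in 2 rounds and labelled with biotin. Array medians were 5.80 to 5.90, so no further normalization was applied. Leaving out 62 control probe sets left 54613 for testing. Among these, 41091 name 1 gene, 1801 several and 11721 none. Symbols were updated by gene identifier through a table of GRCh38.p14, with 54 identifiers unmatched. A gene was represented by its probe set with the highest mean.

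All 12 arrays entered a linear model of 4 group means in limma 3.58.1 (R 4.3.3; 8 residual degrees of freedom, prior 4.92). Tests are limma's moderated ones, two-sided, adjusted by the Benjamini-Hochberg method over all probe sets of a comparison; genes with an adjusted p under 0.05 were called. The fit was tested on simulated data. Promoters were searched in Python 3.11.15 with pandas 2.3.3, and figures drawn with matplotlib 3.10.9. The enzymes, related lists, markers and tests were chosen with earlier results of these data known.

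The text names every listed enzyme. From each related list it names up to 4 members with the smallest p in MMS1, any called in RPMI8226 and up to 2 with the largest called line difference. TFRC, HBB, HBZ, RHAG and other markers belong to fixed marker lists, and HMOX1, PPARGC1A, NRF1 and ESRRA, and the values of LMO2, NFE2, GATA1 and CLPX beyond that rule, were chosen after they were seen. Genes most like ALAS2, ALAS1 and UROD were ranked by Pearson's r. Pairing by replicate number was checked: the residuals of 18 same-number pairs of arrays correlated at -0.075 to 0.058, so the numbers were not taken to pair arrays. Alternatives were quantile normalization, only brighter probe sets, a replicate block, a trended and robust prior, the mean over a gene's probe sets, only the 2 groups compared, and each array left out. For related lists these were added after seeing the data.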

Additional observations from a re-analysis of the deposited data

Results flagged for a closer look

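For 4 of the 8 enzymes the miR-16 sponge effect differed between the lines by limma's interaction test, with the RPMI8226 effect the higher in each. The RPMI8226 effect minus the MMS1 effect was 2.80 for ALAS2 (adjusted p = 2.55e-06), with all 3 sponge arrays below the controls in MMS1 and all 3 above them in RPMI8226. It was 0.63 for ALAS1 (adjusted p = 0.0153), with the same opposite directions. It was 0.58 for UROD (adjusted p = 0.0436) and 0.58 for PPOX (adjusted p = 0.0232), whose RPMI8226 groups overlapped. The ALAS1 and ALAS2 differences passed under every alternative that was run, while those of UROD and PPOX were lost under several. With 3 arrays in a group, single arrays were not tested as outliers.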

How the results depend on the processing

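Over 48 pairs of an enzyme and a comparison and 848 alternatives, the call kept its side of the threshold in 754, was lost in 63 and was gained in 31, and 0 reversed. In MMS1 the count of enzymes higher was 1 instead of 0 with quantile normalization, only brighter probe sets or the trended prior (ALAD), and 0 to 1 leaving out 1 array. The count lower was 2 instead of 4 with the mean over probe sets, 3 with only the 2 groups compared, 5 with brighter probe sets or the trended prior (adding ALAS1), and 4 whichever array was left out. In RPMI8226 the count higher was 1 instead of 0 with brighter probe sets or the trended prior (ALAS1). For the difference between lines in the sponge effect, the count higher was 2 with the mean over probe sets, 3 with the block, 5 with quantile normalization, brighter probe sets or the trended prior (adding FECH) and 2 to 4 leaving out 1 array, and the count lower was 1 with quantile normalization, brighter probe sets or the trended prior (ALAD) and 0 to 1 leaving out 1 array. Between controls the count higher was 2 with quantile normalization, brighter probe sets, the trended prior or the mean over probe sets, and 0 to 2 leaving out 1 array; the count lower was 2 with the first 3 of these and 0 to 2 leaving out 1 array. Between sponge arrays the count lower was 0 with the mean over probe sets or only the 2 groups compared, and 0 to 1 leaving out 1 array. The causes were not tested, beyond the fewer probe sets or arrays in some settings.

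With replicate number as a block, enzyme calls were lost for FECH in the mean effect over lines (adjusted p = 0.0879), UROD in the difference between lines (0.0621) and ALAS1 between sponge arrays (0.0570); ALAS2 in MMS1 gave 4.7e-07. The arrays share only a number. Among related genes BLVRB and FDX1 in MMS1 lost their calls with the block (0.0733 and 0.0712). Quantile normalization moved the median of all genes by less than 0.1 in every comparison. Signals near the lower bound of 4, as in the dim probe sets of ALAS2, UROD and PPOX, limit what differences could be seen there, and 3 arrays per group limit precision throughout.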
